A study of Mus musculus with 20 samples.

Results

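Goblet cells are the secretory cells of the intestinal epithelium that make mucus, and 8 genes of their product were followed through a mouse intestinal RNA-seq series: *Muc2*, *Fcgbp*, *Clca1*, *Zg16*, *Tff3*, *Spink4*, *Agr2* and *Spdef*. They were taken by name, with no threshold on their values but with earlier results of these data known. All were found by gene identifier and symbol among the 54838 gene rows of the deposited tables. All 8 had a value above 0 in all 20 libraries, and all 8 passed the filter on low values in tissue and in organoids. MUC2 is the gel-forming mucin that builds the intestinal mucus layer, and FCGBP, CLCA1 (a secreted metalloprotease) and ZG16 (a lectin-like protein that binds bacteria) are proteins of the same gel. TFF3 is a small trefoil peptide and SPINK4 a small protein of the Kazal protease inhibitor family, both secreted with the mucus. AGR2 is a protein disulfide isomerase of the endoplasmic reticulum, needed in mice to make MUC2, and SPDEF is an ETS transcription factor needed in mice for goblet and Paneth cells to mature.

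The tissue set holds sorted small intestinal crypt cells of C57BL/6 mice carrying the Lgr5-EGFP-IRES-CreERT2 reporter, in which EGFP marks crypt stem cells, separated into Lgr5-high and Lgr5-low gates. Cells labelled *Mettl3* knockout (KO; floxed *Mettl3*, a gene for an RNA m6A methyltransferase, removed after tamoxifen at 20 mg/ml for 4 days) were taken at day 3 with 1 library per gate, at day 4 with 2 libraries per gate, and at day 6 with 2 libraries for which no gate is labelled, although the header of the first names the low gate. WT cells have 2 libraries per gate and are labelled untreated, while the protocol also describes tamoxifen for floxed mice, so the knockout and tamoxifen itself cannot be told apart in tissue. The organoid set, grown in ENR medium from floxed *Mettl3* mice with Villin-CreERT2, has 2 libraries in each of 4 groups: KO with AKFP (retroviral *Ascl2*, *Klf9*, *Fosb* and *Purb*), KO with AKF (the same without *Purb*), KO without added factors, all with 4-OHT for 2 days, and WT with ethanol for 2 days. Knockout and 4-OHT cannot be told apart in organoids. Only the titles of the groups without added factors hold the word "m3-flag", left unexplained there. What it stands for and the added factors cannot be told apart where AKF or AKFP is compared with those groups. The sources do not state if replicate libraries are different animals or cultures, so the p-values measure the spread between libraries, which may be technical.

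Values are FPKM (fragments per kilobase of transcript, relative to each library's mapped total), a scale per length on which levels of different genes can be roughly compared. Depth was roughly estimated at between 1.50e+07 and 2.54e+07 fragments per library. *Mettl3* itself stood between 2.75 and 4.99 FPKM in KO tissue and between 3.42 and 4.86 FPKM in WT tissue, and between 3.33 and 4.22 FPKM in KO organoids and between 3.23 and 3.56 FPKM in WT organoids, so its level did not separate the labels. The values are per gene, and do not show whether the floxed part was lost. *Lgr5* stood at 10.1 to 10.4 FPKM in WT Lgr5-high cells and at 0.715 to 0.974 FPKM in WT Lgr5-low cells. Markers of immune cells summed to at most 34.3 FPKM in any library, over 10 genes, and to at most 1.16 FPKM in organoids, all 8 of which list *Ptprc*, the common leukocyte antigen, at 0, and those of stroma and endothelium to at most 25.6 FPKM over 9 genes. All 11 Paneth and all 12 enteroendocrine markers listed were above 0 in all 20 libraries.

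*Muc2*, *Fcgbp* and *Zg16* lie on chromosome 7 (GRCm38 141690340 to 141754693, 28071236 to 28120862 and 127050156 to 127087328), *Tff3* and *Spdef* on chromosome 17 (31125306 to 31129646 and 27714352 to 27728955), *Clca1* on chromosome 3 (145003817 to 145032776), *Agr2* on chromosome 12 (35992907 to 36004087) and *Spink4* on chromosome 4 (40920052 to 40931395). *Zg16* overlaps 2 genes on the opposite strand, *Gm44939* and *Gm22747*, both listed at 0 FPKM in all 20 libraries. The RefSeq promoter table held 4 of the 8 genes, and the 250 bases before each start are shown because these genes cover the gel mucin, another gel protein, the isomerase and the transcription factor. Sequences run 5′ to 3′ on the gene's strand (GRCm38.p6), and capitals mark 3 motifs searched on both strands: the E-box CAGCTG, the GATA motif GATAA, and the TATA motif TATAA. In *Spdef* a TATA motif on each strand overlaps with the other.
Muc2 (chr7:141690090-141690339, + strand): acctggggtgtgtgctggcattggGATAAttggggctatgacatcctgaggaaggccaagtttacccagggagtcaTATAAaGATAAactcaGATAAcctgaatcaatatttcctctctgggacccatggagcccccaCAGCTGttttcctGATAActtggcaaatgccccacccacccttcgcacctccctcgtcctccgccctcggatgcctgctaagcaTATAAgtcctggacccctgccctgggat
Fcgbp (chr7:28070986-28071235, + strand): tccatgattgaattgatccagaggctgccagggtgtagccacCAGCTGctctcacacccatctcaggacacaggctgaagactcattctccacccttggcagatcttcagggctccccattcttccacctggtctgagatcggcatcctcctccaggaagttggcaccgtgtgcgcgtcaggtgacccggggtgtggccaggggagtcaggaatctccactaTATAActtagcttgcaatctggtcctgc
Agr2 (chr12:35992675-35992924, + strand): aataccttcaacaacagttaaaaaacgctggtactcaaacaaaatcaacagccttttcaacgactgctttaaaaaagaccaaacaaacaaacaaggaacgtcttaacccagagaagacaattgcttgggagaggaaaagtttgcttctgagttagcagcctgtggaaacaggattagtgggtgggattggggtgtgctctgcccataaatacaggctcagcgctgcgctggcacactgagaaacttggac
Spdef (chr17:27728952-27729201, - strand): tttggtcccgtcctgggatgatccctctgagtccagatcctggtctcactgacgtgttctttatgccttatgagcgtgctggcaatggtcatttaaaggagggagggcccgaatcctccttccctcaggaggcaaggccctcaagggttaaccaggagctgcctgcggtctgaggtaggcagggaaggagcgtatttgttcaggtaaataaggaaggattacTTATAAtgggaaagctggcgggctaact
The *Muc2* window held 4 GATA motifs, 2 TATA motifs and 1 E-box, the *Fcgbp* window 1 E-box and 1 TATA motif, the *Spdef* window TATA motifs alone and the *Agr2* window none of the motifs. Of 32851 promoter windows of the same length, 13% held the E-box, 22.6% the GATA motif and 22.8% the TATA motif, and 0.712% held the GATA motif 3 or more times. A match of letters is a description and no evidence of binding.

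The mucus genes were abundant and unequal. *Spink4* and *Tff3* were the highest of the 8 in FPKM, *Tff3* making 20.7% to 39.5% of their summed FPKM in tissue and 40.2% to 45.4% in organoids, and *Spink4* 23.8% to 56.8% in tissue and 32.0% to 43.3% in organoids. *Muc2* made only 0.984% to 3.52% of the sum in tissue and 0.564% to 1.08% in organoids, and *Spdef*, the regulator, at most 0.312%. *Tff3* and *Spink4* are short, with 493 and 477 exonic bases against 7127 for *Muc2*. The part of gene length in this ranking was not tested. Together the 8 genes took 1.06% and 1.47% of all FPKM in KO day 4 Lgr5-high libraries, against 0.466% and 0.398% in WT Lgr5-high libraries. In the Lgr5-low gate they took 1.498% and 2.233% in KO day 4 libraries, against 1.14% and 0.981% in WT libraries. KO organoids gave them 0.799% and 0.769% and WT organoids 0.528% and 0.417%. In each of these pairs the KO libraries lay above the WT libraries without overlap. In bulk RNA, a different number of goblet cells and a different amount of RNA per goblet cell cannot be told apart.

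**Figure D1:**
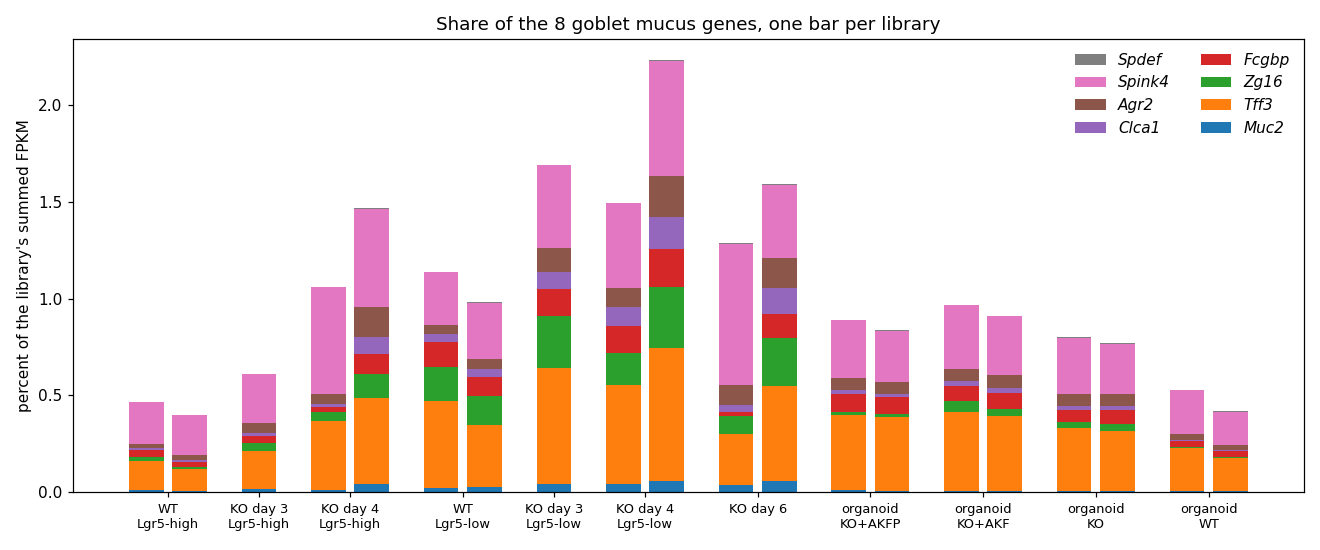
Share of each library's summed FPKM (percent, vertical axis) taken by the 8 goblet mucus genes, stacked by gene, with 1 bar per library. WT Lgr5-high libraries hold 0.466% and 0.398%, the lowest of the tissue set, and the second KO day 4 Lgr5-low library 2.233%, the highest.

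In WT crypts all 8 genes had a lower mean in the Lgr5-high gate than in the Lgr5-low gate, and 1 of these differences passed the test. *Zg16* had 90.1 and 68.4 FPKM in WT Lgr5-high cells, against 868 and 767 FPKM in WT Lgr5-low cells, a change of -3.36 ± 0.45 (SE) on the log2(FPKM + 1) scale (limma adjusted p = 0.0163, n = 2 libraries per group). It was the 1 of the 8 that passed an adjusted p of 0.05, where 1.2% of the 12899 genes tested passed in either direction and 0.83% were called lower. *Clca1* had 36.3 and 38.3 FPKM in WT Lgr5-high cells and 203 and 228 FPKM in WT Lgr5-low cells, *Fcgbp* 184 and 118 against 646 and 515 FPKM, and *Tff3* 752 and 511 against 2240 and 1688 FPKM. Their differences were -2.50, -1.96 and -1.65 on the log2 scale, with limma adjusted p of 0.118, 0.239 and 0.0552. *Muc2* had 45.1 and 34.4 FPKM in WT Lgr5-high cells and 107 and 126 FPKM in WT Lgr5-low cells, and *Agr2* 123 and 125 against 251 and 277 FPKM. The narrowest differences were those of *Spink4*, with 1046 and 954 FPKM in WT Lgr5-high cells and 1348 and 1514 FPKM in WT Lgr5-low cells, and of *Spdef*, with 7.13 and 3.53 against 10.2 and 5.76 FPKM. Of the 8, 7 had both Lgr5-high libraries below both Lgr5-low libraries, all but *Spdef*, as did 24.3% of all genes tested. Enterocyte and enteroendocrine markers differed in the same direction. The 13 enterocyte markers summed to 573 to 618 FPKM in WT Lgr5-high cells against 2771 to 4995 FPKM in WT Lgr5-low cells. The 12 enteroendocrine markers summed to 104 to 240 against 522 to 804 FPKM. The sums of the 11 Paneth markers overlapped, at 49578 to 70001 FPKM in WT Lgr5-high cells against 56256 to 67615 FPKM in WT Lgr5-low cells. None of the 11 was called. The *Zg16* call was lost whichever of the 4 WT libraries was left out, with the change between -3.56 and -3.17, while a fit of these groups alone called 6 of the 8 and 12% of all genes.

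Within the Lgr5-high gate, *Tff3* stood at 752 and 511 FPKM in WT cells, 914 FPKM at KO day 3, and 2176 and 2051 FPKM at KO day 4. Both day 4 libraries lay above the WT libraries, by 1.77 ± 0.33 on the log2 scale (limma adjusted p = 0.0497, n = 2 libraries per group), a ratio of mean FPKM of 3.35. *Tff3* was the 1 of the 8 called at day 4 in this gate, where 1.05% of genes were called in either direction and 0.729% were called higher. *Zg16* stood at 90.1 and 68.4 FPKM in WT cells, 180 FPKM at KO day 3, and 286 and 558 FPKM at KO day 4, a day 4 difference of 2.33 ± 0.45 with a limma adjusted p of 0.0527. *Agr2* stood at 123 and 125 FPKM in WT cells, 230 FPKM at KO day 3, and 326 and 695 FPKM at KO day 4, a day 4 difference of 1.93 ± 0.43 with a limma adjusted p of 0.0756. Neither passed the threshold, although the KO libraries of both genes lay above both WT libraries.

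*Clca1* had 36.3 and 38.3 FPKM in WT Lgr5-high cells, 80.7 FPKM at KO day 3, and 103 and 407 FPKM at KO day 4. *Spink4* had 1046 and 954 FPKM in WT Lgr5-high cells, 1162 FPKM at KO day 3, and 3337 and 2335 FPKM at KO day 4. *Muc2* had 45.1 and 34.4 FPKM in WT Lgr5-high cells, 63.6 FPKM at KO day 3, and 63.4 and 187 FPKM at KO day 4. The day 4 libraries thus disagreed on the gel proteins, the second being the higher of the pair for *Muc2*, *Clca1*, *Zg16* and *Fcgbp* (and for *Agr2*), and agreed more closely on *Tff3* and *Spdef*. *Spdef* had 7.13 and 3.53 FPKM in WT Lgr5-high cells, 5.44 FPKM at KO day 3, and 11.6 and 12.5 FPKM at KO day 4, with a day 4 difference of 1.11 ± 0.36 that did not pass (limma adjusted p = 0.177). *Fcgbp* had 184 and 118 FPKM in WT Lgr5-high cells, 156 FPKM at KO day 3, and 142 and 491 FPKM at KO day 4, and its groups overlapped. Without the second day 4 library its difference was -0.0539 rather than 0.84. Over the 8 genes the median day 4 difference in this gate was 1.62, beside -0.02 over all genes, and 7 of the 8 had both KO libraries above both WT libraries, as did 24.9% of all genes. The 12 enteroendocrine markers, 6 of them called higher, summed to 862 to 1795 FPKM in KO day 4 Lgr5-high cells against 104 to 240 FPKM in WT Lgr5-high cells, and the 11 Paneth markers to 57202 to 109340 FPKM against 49578 to 70001 FPKM. The 10 stem cell markers summed to 1742 to 2299 FPKM in KO day 4 Lgr5-high cells against 3450 to 3701 FPKM in WT Lgr5-high cells, none of them called, with *Lgr5* at 2.31 and 5.998 FPKM against 10.1 and 10.4 FPKM. The part of these markers in the differences was not tested. The *Tff3* call was lost without either WT library, without the first KO library, with no filter, in a fit of these groups alone and with 3 other scalings, with adjusted p between 0.0382 and 0.429 over all alternatives.

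In the Lgr5-low gate the 8 genes differed in the same direction and none passed the test, where 0.473% of genes passed. The limma test gave 4 members an unadjusted p under 0.05 (*Agr2*, *Spdef*, *Clca1* and *Muc2*), as it did 1768 of the 12899 genes. *Agr2* stood at 251 and 277 FPKM in WT cells, 660 FPKM at KO day 3, and 505 and 1136 FPKM at KO day 4, a day 4 difference of 1.52 ± 0.43 (limma adjusted p = 0.177). *Clca1* stood at 203 and 228 FPKM in WT cells, 465 FPKM at KO day 3, and 499 and 888 FPKM at KO day 4. *Muc2* stood at 107 and 126 FPKM in WT cells, 227 FPKM at KO day 3, and 200 and 305 FPKM at KO day 4. The KO libraries of these 3 genes all lay above both WT libraries at day 3 and at day 4.

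*Tff3* was at 2240 and 1688 FPKM in WT Lgr5-low cells, 3167 FPKM at KO day 3, and 2615 and 3680 FPKM at KO day 4, and *Spink4* at 1348 and 1514 FPKM in WT, 2274 FPKM at KO day 3, and 2239 and 3178 FPKM at KO day 4. *Fcgbp* was at 646 and 515 FPKM in WT Lgr5-low cells, 740 FPKM at KO day 3, and 715 and 1041 FPKM at KO day 4, and *Spdef* at 10.2 and 5.76 FPKM in WT, 10.4 FPKM at KO day 3, and 14.3 and 19.4 FPKM at KO day 4. *Zg16*, at 868 and 767 FPKM in WT Lgr5-low cells, 1441 FPKM at KO day 3, and 852 and 1688 FPKM at KO day 4, was the 1 gene whose day 4 and WT libraries overlapped. The other 7 had no overlap and were higher in KO, as were 29.1% of all genes. The median day 4 difference of the 8 was 0.96, beside 0.03 over all genes. The 12 enteroendocrine markers summed to 1455 to 2402 FPKM in KO day 4 Lgr5-low cells against 522 to 804 FPKM in WT Lgr5-low cells, and the 11 Paneth markers to 81791 to 84574 FPKM against 56256 to 67615 FPKM. None of either list was called, and their part in these values was not tested.

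Day 3 has 1 library per gate and was not tested. In the Lgr5-high gate *Zg16* and *Clca1* were past a 2-fold difference from the WT mean (1.19 and 1.09 on the log2 scale) and 6 of the 8 were above both WT libraries, all but *Fcgbp* and *Spdef*, as were 43.4% of all genes. In the Lgr5-low gate *Agr2* and *Clca1* were past it (1.32 and 1.11) and all 8 were above both WT libraries, as were 42% of all genes. Of all genes, 0.853% were past a 2-fold difference upward in each gate. With the first WT Lgr5-high library alone as the baseline, *Clca1* at 1.13 was past it and *Zg16* at 0.99 was not.

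**Figure D2:**
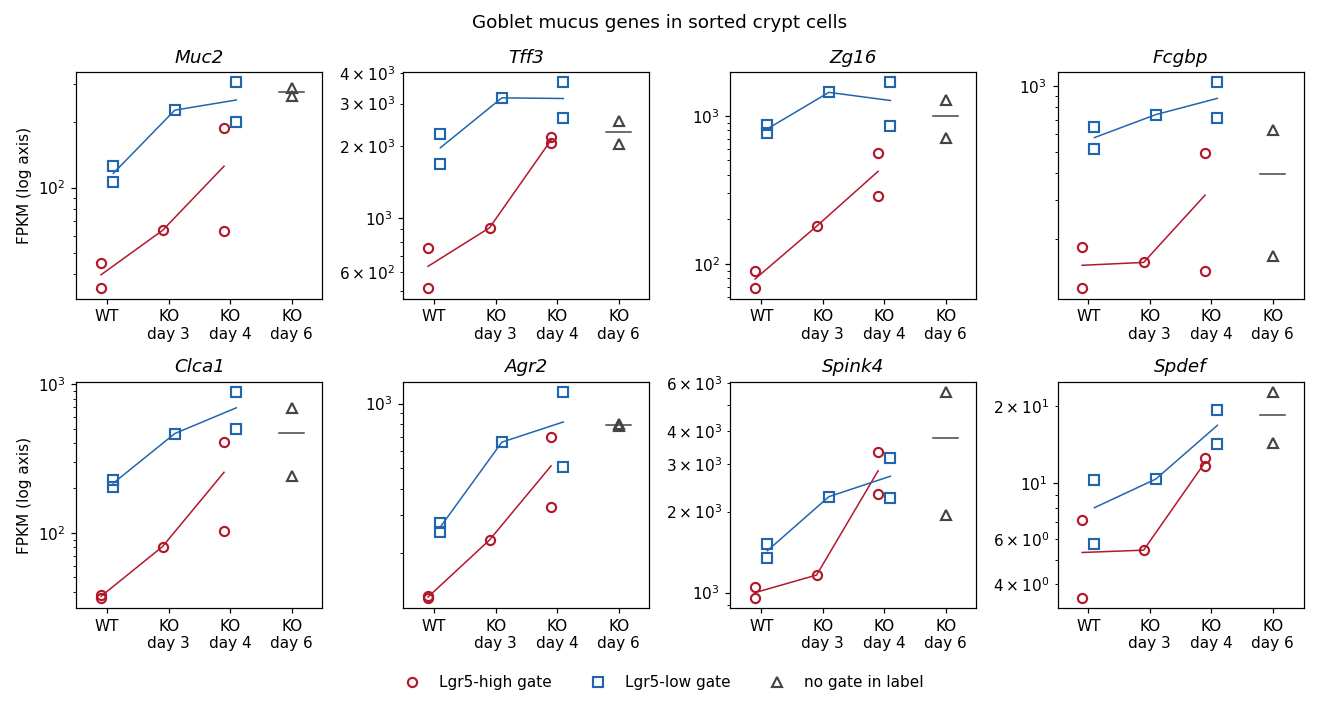
FPKM (log axis) of each gene in sorted crypt cells of WT mice and of KO mice at days 3, 4 and 6, with 1 point per library and lines through the group means. In the Lgr5-high gate *Tff3* stands at 2176 and 2051 FPKM at KO day 4, against 752 and 511 FPKM in WT cells, and the day 6 libraries, whose labels name no gate, differ most in *Fcgbp*, at 167 and 627 FPKM.

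Between the gates at KO day 4, *Zg16* had 286 and 558 FPKM in Lgr5-high cells against 852 and 1688 FPKM in Lgr5-low cells, a change of -1.58 ± 0.45 (limma adjusted p = 0.153). *Fcgbp*, *Clca1* and *Muc2* were lower in Lgr5-high cells by -1.70, -1.69 and -1.17 on the log2 scale, while *Spink4* differed by 0.07 with a 95% interval of -1.03 to 1.16. None of the 8 passed, nor did any of the 12899 genes (0%, with 2417 at an unadjusted limma p under 0.05), and 4 of the 8 had an unadjusted limma p under 0.05. Without the second Lgr5-high library, those 4 (*Muc2*, *Zg16*, *Fcgbp* and *Clca1*) were called lower, with changes of -1.95 to -2.68, where 13.6% of genes were called. A direct test of whether the KO difference at day 4 was larger in the Lgr5-high than in the Lgr5-low gate called none of the 8, beside 0.0155% of genes. The largest such differences were 1.78 ± 0.63 for *Zg16* and 1.09 ± 0.47 for *Tff3* (limma adjusted p = 0.963 for both). They were the 2 members with an unadjusted limma p under 0.05 in this test, which 223 of the 12899 genes had.

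For all 8 genes the day 6 libraries differed less from WT Lgr5-low than from WT Lgr5-high cells. Since the day 6 labels name no gate, both WT gates were used, and the comparisons with WT Lgr5-high share those WT libraries with the day 4 comparison. *Muc2* had 264 and 287 FPKM at KO day 6, *Zg16* 710 and 1275 FPKM, *Clca1* 242 and 692 FPKM, and *Fcgbp* 167 and 627 FPKM. *Tff3* had 2038 and 2529 FPKM at KO day 6, *Spink4* 5582 and 1946 FPKM, *Agr2* 801 and 782 FPKM, and *Spdef* 22.8 and 14.3 FPKM. The first day 6 library was thus the higher of the pair in *Spink4* and *Spdef* and the lower in *Zg16*, *Clca1*, *Fcgbp* and *Tff3*, while *Muc2* and *Agr2* were close in both.

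Against WT Lgr5-high cells, 7 of the 8 rose at day 6, where 10.1% of genes were called higher and 21.9% were called in either direction. *Zg16* changed by 3.58 ± 0.45 (limma adjusted p = 0.00191), *Clca1* by 3.42 ± 0.65 (0.00867), *Muc2* by 2.77 ± 0.45 (0.00458) and *Agr2* by 2.66 ± 0.43 (0.00459). *Tff3*, *Spink4* and *Spdef* rose by 1.87, 1.72 and 1.65, and *Fcgbp* did not pass at 1.13 (limma adjusted p = 0.264). Their median was 2.27, beside -0.16 over all genes. With library sums made equal, the median of all genes moved to -0.49 and 7 were still called, where 12.8% of all genes were called in either direction. Without the second WT Lgr5-high library 3 of the 8 were called, and 4.6% of all genes. The *Spink4* call was lost in 3 of the 4 fits that left out a library, with no filter, with median-of-ratios scaling and in a fit of these groups alone, with its change between 0.96 and 2.48, and those of *Clca1*, *Spdef* and *Tff3* were lost in at least 1 of the 4 fits. A difference in gate cannot be told apart from one of genotype or time here, and 8 of the 13 enterocyte markers and 11 of the 12 enteroendocrine markers were also called higher while all 10 stem cell markers were called lower, as were 11.9% of genes.

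Against WT Lgr5-low cells, *Agr2* rose at day 6, by 1.58 ± 0.43 (limma adjusted p = 0.0479), with 801 and 782 FPKM at KO day 6 against 251 and 277 FPKM in WT Lgr5-low cells. It was the 1 of the 8 called, where 6.22% of genes were called higher and 11.5% in either direction. *Muc2* (1.24), *Spink4* (1.21), *Spdef* (1.13) and *Clca1* (0.93) had no overlap between the groups and did not pass, and with *Agr2* they made 5 of the 8 without overlap and higher at day 6, as was so of 26.1% of genes. *Tff3* and *Zg16* differed by 0.22 each, with 95% intervals of -0.53 to 0.97 and -0.79 to 1.24, and *Fcgbp* by -0.83 with an interval of -2.39 to 0.73. With library sums made equal, *Tff3* and *Zg16* turned to -0.0703 and -0.0718. The *Agr2* call was lost whichever of the 4 libraries was left out and with 4 of 7 other settings, with adjusted p between 0.0143 and 0.201. Defensin and lysozyme genes took 47.2% and 27.8% of the day 6 FPKM, against 15.6% to 29.1% in the other tissue libraries. They are products of Paneth cells, apart from *Lyz2*, which stands among the immune markers. The part of these summed genes in the values above was not tested beyond the scalings.

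Compared with KO day 4, day 6 gave no call among the 8. Against the Lgr5-high gate at day 4, 3.21% of genes passed. *Muc2* and *Zg16* differed by 1.33 ± 0.45 and 1.25 ± 0.45 (limma adjusted p = 0.125 and 0.142). They were the 2 members with an unadjusted limma p under 0.05, which 3117 of the 12899 genes had. Without the second day 4 Lgr5-high library both were called higher, where 14.4% of genes were called in either direction. Against the Lgr5-low gate at day 4, 0.0543% of genes passed. No member had an unadjusted limma p under 0.05, beside 1069 of the 12899 genes. *Fcgbp* had the lowest p of the members, with a difference of -1.41 ± 0.69. *Agr2* differed by 0.06 with a 95% interval of -0.91 to 1.04.

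In organoids, 7 of the 8 genes rose with the knockout, where 16.7% of genes rose and 28.2% were called in either direction. *Clca1* had 78.9 and 88.9 FPKM in KO organoids, against 9.35 and 8.43 FPKM in WT organoids, and *Zg16* had 138 and 142 FPKM in KO organoids, against 27.3 and 18.1 FPKM in WT organoids. *Clca1* rose by 3.10 ± 0.09 (limma adjusted p = 3.42e-05), 9.44-fold in mean FPKM, and *Zg16* by 2.60 ± 0.22 (limma adjusted p = 0.000662), 6.15-fold. Only 0.103% of the 12657 genes tested had a larger change than *Clca1*, in either direction, and 0.221% a larger one than *Zg16*. *Fcgbp* had 258 and 284 FPKM in KO organoids against 118 FPKM in both WT libraries, and *Agr2* 249 and 246 against 117 and 94.6 FPKM. They rose by 1.196 ± 0.07 and 1.23 ± 0.10 (limma adjusted p = 0.000373 and 0.00067).

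*Muc2* had 18.5 and 28.3 FPKM in KO organoids against 11.8 and 12.04 FPKM in WT organoids, and rose by 0.89 ± 0.20 (limma adjusted p = 0.019). *Tff3* had 1335 and 1225 FPKM in KO organoids against 866 and 634 FPKM in WT organoids, and rose by 0.79 ± 0.15 (limma adjusted p = 0.0107). *Spink4* had 1205 and 1028 FPKM in KO organoids against 882 and 632 FPKM in WT organoids, and rose by 0.57 ± 0.18 (limma adjusted p = 0.0489). These 7 had no overlap between KO and WT, as was so of 36.6% of all genes in this direction. *Spdef* had 3.57 and 4.45 FPKM in KO organoids against 3.79 and 2.27 FPKM in WT organoids, overlapped, and did not pass at 0.33 (limma adjusted p = 0.252, 95% interval -0.13 to 0.80). The median change of the 8 was 1.04, beside 0.01 over all genes. The *Spink4* call was lost with each of 3 libraries left out, the *Muc2* call with each of 3, the *Tff3* call without the first KO library, all of these calls with no filter, and that of *Spink4* also with 3 other scalings and in a fit of these groups alone, while *Clca1*, *Zg16*, *Fcgbp* and *Agr2* were called in every alternative run. The 12 enteroendocrine markers summed to 1041 to 1092 FPKM in KO organoids against 449 to 571 FPKM in WT organoids, the 11 Paneth markers to 9122 to 10789 FPKM against 6490 to 8723 FPKM, the 10 stem cell markers to 466 to 487 FPKM against 771 to 868 FPKM, and the 13 enterocyte markers to 2023 to 2082 FPKM against 4560 to 4623 FPKM, and their part in the result was not tested.

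**Figure D3:**
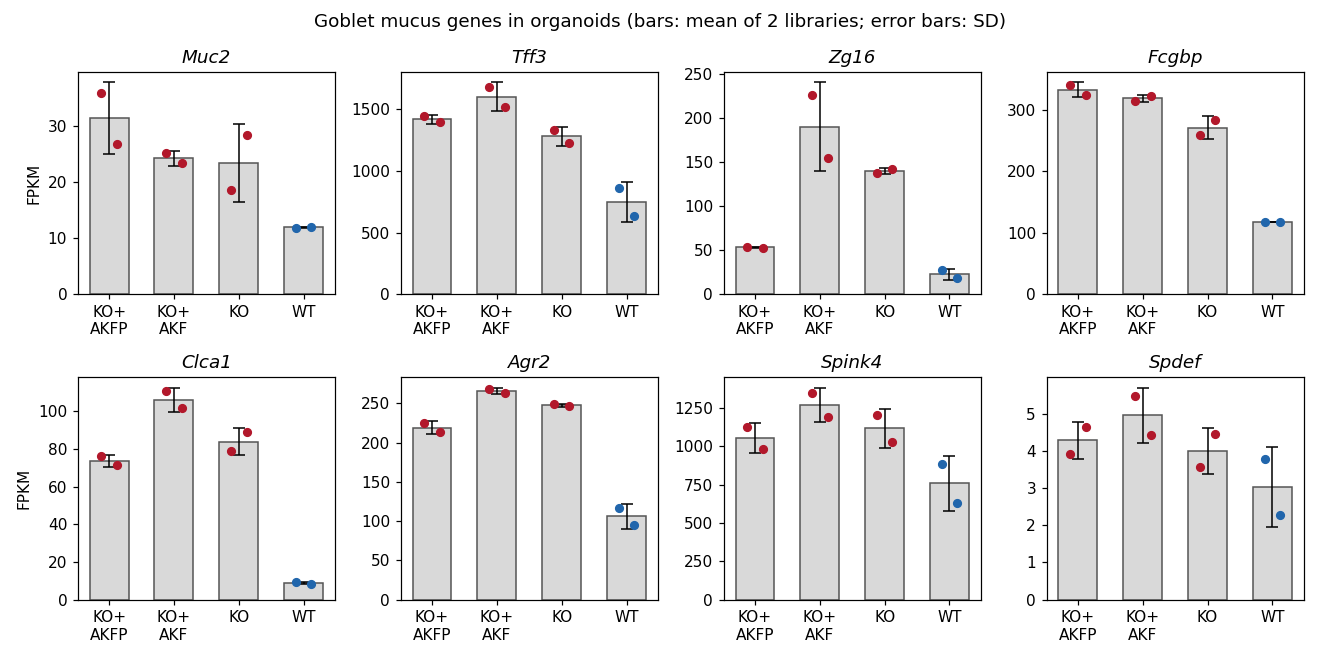
FPKM of each gene in organoids, with bars for the mean of 2 libraries, error bars for the SD and points for the libraries. *Clca1* stands at 78.9 and 88.9 FPKM in KO organoids and at 9.35 and 8.43 FPKM in WT organoids, and *Zg16* is lower with AKFP, at 54.1 and 52.9 FPKM, than in KO organoids, at 138 and 142 FPKM.

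Of the 8 genes, *Zg16* differed most between KO organoids with AKFP and KO organoids without added factors. With AKFP, *Zg16* stood at 54.1 and 52.9 FPKM, against 138 and 142 FPKM in KO organoids without added factors, and fell by 1.37 on the log2 scale (SE 0.22, limma adjusted p = 0.00754). *Fcgbp* stood at 341 and 325 FPKM with AKFP against 258 and 284 FPKM in KO organoids, and rose by 0.30 ± 0.07 (limma adjusted p = 0.0282). Of the 8 these 2 were called, where 26.4% of genes were called, 13.2% higher and 13.2% lower. *Clca1* had 76.1 and 71.5 FPKM with AKFP against 78.9 and 88.9 FPKM in KO organoids, *Agr2* 225 and 213 against 249 and 246 FPKM, and *Muc2* 35.9 and 26.8 against 18.5 and 28.3 FPKM. None of these 3 passed, with changes of -0.18, -0.18 and 0.42. *Tff3* had 1447 and 1395 FPKM with AKFP against 1335 and 1225 FPKM in KO organoids (0.15), *Spink4* 1124 and 984 against 1205 and 1028 FPKM (-0.08), and *Spdef* 3.93 and 4.64 against 3.57 and 4.45 FPKM (0.08). The signs for *Spink4* and *Spdef* turned when single libraries were left out. Leaving out any 1 of the 4 libraries took away the *Fcgbp* call and none took away that of *Zg16*, whose change stayed between -1.39 and -1.35. Of the other markers, 8 of the 11 Paneth markers were called higher with AKFP than in KO organoids, 9 of the 12 enteroendocrine markers were called lower and 2 higher, and their part in these values was not tested.

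With AKF, which lacks *Purb*, no member passed against KO organoids, where 0.0474% of genes did. *Clca1* had 111 and 102 FPKM with AKF against 78.9 and 88.9 FPKM in KO organoids (0.34 ± 0.09), and *Fcgbp* 315 and 323 against 258 and 284 FPKM (0.23 ± 0.07). These 2 had an unadjusted limma p under 0.05, as did 582 of the 12657 genes, and their adjusted p was 0.856 and 0.958. *Zg16* had 226 and 155 FPKM with AKF against 138 and 142 FPKM in KO organoids, *Tff3* 1683 and 1520 against 1335 and 1225 FPKM, and *Agr2* 269 and 264 against 249 and 246 FPKM. All 8 had a higher mean with AKF than without, by 0.08 to 0.42, and 5 had no overlap, as was so of 13.9% of genes.

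Set directly against AKF, AKFP organoids had less *Zg16*, at 54.1 and 52.9 FPKM against 226 and 155 FPKM, and less *Clca1*, at 76.1 and 71.5 FPKM against 111 and 102 FPKM. *Zg16* fell by 1.79 on the log2 scale (SE 0.22, limma adjusted p = 0.00316) and *Clca1* fell by 0.52 (SE 0.09, limma adjusted p = 0.00992), 2 of the 8, where 25.6% of genes were called. The *Clca1* call was lost without the first AKF or the second AKFP library. *Muc2* differed by 0.34 and *Fcgbp* by 0.06, neither called. Against WT organoids, which these comparisons share with the KO comparison above, AKF organoids had 7 of the 8 higher, all but *Spdef*, where 30.3% of genes were called (17.6% higher), and AKFP organoids 6, all but *Spdef* and *Spink4*, where 43.4% were called (24.6% higher). Leaving out single libraries gave 5 to 7 of the 8 with AKF, where the *Muc2* call was lost in 3 of 4 fits and that of *Spink4* in 2, and 6 to 8 with AKFP. *Clca1* was 3.44 higher with AKF and 2.92 with AKFP, and *Zg16* 3.02 higher with AKF and 1.23 with AKFP, each against WT organoids.

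**Figure D4:**
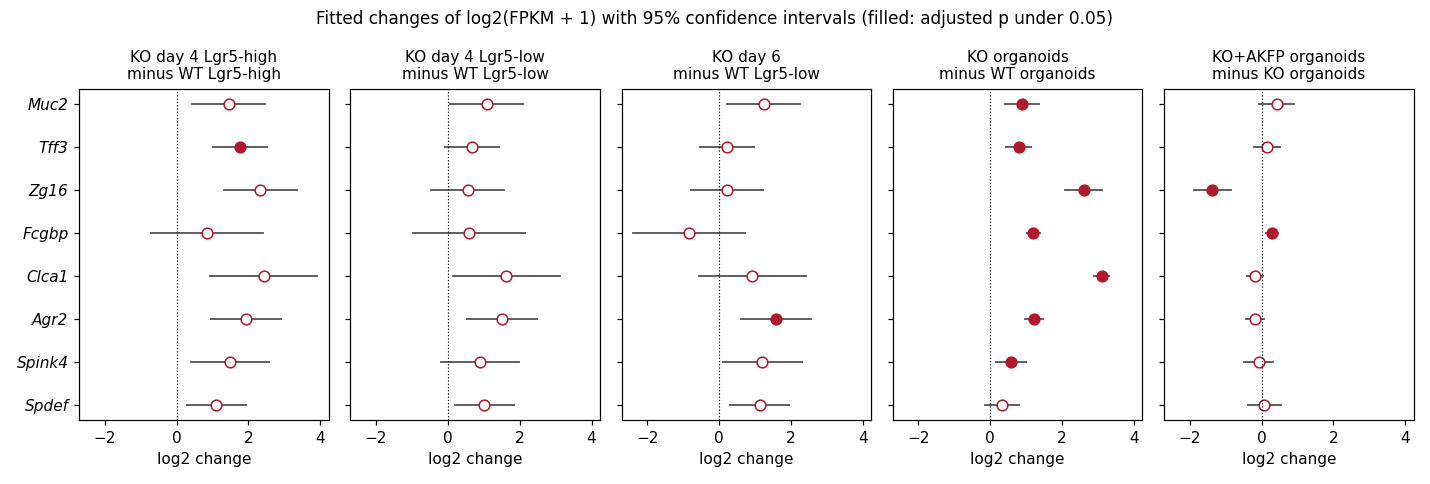
Fitted changes of log2(FPKM + 1) with 95% confidence intervals (horizontal axis) for the 8 genes in 5 comparisons, filled where the limma adjusted p is under 0.05. *Clca1* lies at 3.10 in KO against WT organoids, and *Zg16* lies at -1.37 in KO organoids with AKFP against KO organoids.

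Other genes of the mucus programme were followed as lists. These lists were chosen with earlier results of these data known, so their counts are a description and no independent support. The transcription factor and Notch list held 13 genes, of which 5 rose in KO organoids against WT organoids and none fell, where 16.7% of all genes rose and 11.5% fell. *Foxa1*, a forkhead factor of goblet cells, had 22.8 and 25.5 FPKM in KO organoids against 11.7 and 13.6 FPKM in WT organoids (0.88 ± 0.10, limma adjusted p = 0.00178), and *Atoh1*, the factor that commits crypt cells to the secretory lineage, had 8.91 and 8.86 against 5.74 and 5.57 FPKM (0.57 ± 0.07, adjusted p = 0.00211). *Klf4*, a zinc finger factor of goblet cells, rose by 0.55. At KO day 6 against WT Lgr5-low, 3 of the 13 rose, where 6.22% of all genes did, *Foxa3* by 1.38, *Foxa1* by 1.68 and *Atoh1* by 1.47, with 32.8 and 37.8 FPKM of *Atoh1* at day 6 against 14.4 and 10.2 FPKM in WT Lgr5-low cells. At day 4 none of the 13 passed in either gate, with *Atoh1* at 1.05 in the Lgr5-high gate (limma adjusted p = 0.191). With AKFP against KO organoids 4 rose and 2 fell, where 13.2% of all genes rose and 13.2% fell, *Foxa1* rising by a further 0.95, to 45.7 and 49.6 FPKM, while *Spdef* did not pass at 0.08.

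Mucins are built by O-glycosylation, and of 17 glycosylation genes tested in organoids 9 rose and 1 fell in KO against WT, where 16.7% of all genes rose and 11.5% fell. *Galnt3* and *Galnt12*, which start O-glycan chains, rose by 0.70 and 0.77, and *Fut2*, a fucosyltransferase, rose by 1.19, with 1.85 and 1.78 FPKM in KO organoids against 0.326 and 0.145 FPKM in WT organoids. The median over the list was 0.21, beside 0.01 over all genes. At KO day 6 against WT Lgr5-low 5 of 18 rose and none fell, where 6.22% of all genes rose, *Gcnt3*, a branching enzyme, by 2.25, *Galnt3* by 1.54, and *Fut2* by 2.66, with 9.65 and 8.42 FPKM at day 6 against 0.802 and 0.387 FPKM in WT Lgr5-low cells. At day 4 none of the 18 passed in either gate.

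Of 20 genes of the secretory pathway, 9 rose and 1 fell in KO organoids against WT organoids, where 16.7% of all genes rose and 11.5% fell. *Qsox1*, a sulfhydryl oxidase, had 31.6 and 33.3 FPKM in KO organoids against 17.3 and 17.1 FPKM in WT organoids (0.88 ± 0.06, limma adjusted p = 0.000417). *Hspa5*, the chaperone BiP, rose by 0.81, and *Dnajc10*, a disulfide reductase of the endoplasmic reticulum, by 0.56. In KO day 4 Lgr5-high cells 2 of 20 rose against WT Lgr5-high cells, where 0.729% of all genes rose: *Sdf2l1*, with 88.5 and 81.4 FPKM against 36.9 and 36.3 FPKM, and *Manf*, with 61.6 and 58.3 against 30.5 and 24.7 FPKM, both genes induced by stress of the endoplasmic reticulum. At KO day 6 against WT Lgr5-low 4 rose, where 6.22% of all genes rose, among them *Qsox1* by 1.56, *Kdelr3*, a retrieval receptor, by 1.54, and *Fkbp11*, a prolyl isomerase, by 1.45. With AKFP against KO organoids 5 of 20 rose and 2 fell, where 13.2% of all genes rose and 13.2% fell.

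Further goblet markers rose in part. In KO organoids 13 of 22 rose and 2 fell, with a median of 0.45, where 16.7% of all genes rose and 11.5% fell. *Hgfac*, a secreted protease that activates hepatocyte growth factor, had 27.5 and 27.6 FPKM in KO organoids against 10.1 and 8.01 FPKM in WT organoids (1.52 ± 0.10, limma adjusted p = 0.000373), *Bcas1* rose by 1.45 and *Slc12a8*, a transporter, by 1.47. *Hgfac* also rose in KO day 4 Lgr5-high cells by 1.53, with 11.4 and 13.7 FPKM against 3.47 and 3.87 FPKM in WT Lgr5-high cells, and in KO day 4 Lgr5-low cells by 1.22 (limma adjusted p = 0.0391), the 1 of 23 called there, where 0.473% of all genes were called in either direction. In the Lgr5-high gate 3 of 23 rose, where 0.729% of all genes rose, the others being *Pla2g10*, a secreted phospholipase, by 1.59 and *Guca2a*, which encodes guanylin, by 1.67. At KO day 6 against WT Lgr5-low 8 of 23 rose and none fell, where 6.22% of all genes rose. With AKFP against KO organoids 4 of 22 rose and 5 fell, where 13.2% of all genes rose and 13.2% fell. The median over this list was -0.04, beside 0.04 over all genes.

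Genes whose profile lay nearest to the mean centred profile of the members were found over the libraries, as a description of likeness with no test. Over the 12 tissue libraries the nearest of 7307 genes was *Capn9*, a calpain of the digestive tract, with a root mean square difference of 0.236 on the log2 scale, then *Rep15* (0.251), *Tstd3*, *Aplp1*, *Cgref1*, *Gimd1*, *Guca2a* (0.308) and *Tph1* (0.319), where the median gene lay at 1.03. Over the 8 organoid libraries, where *Spdef* was left out of the mean because it averaged under 5 FPKM, the nearest of 7723 genes was *Hgfac* (0.114), then *F3*, *Capg*, *Rpp25l*, *Anxa3*, *Rab22a*, *Bcas1* and *Fam129a* (0.158), beside a median of 0.698. *Capn9*, *Rep15*, *Guca2a*, *Hgfac* and *Bcas1* stand in the list of further goblet markers, and *Tph1* stands in the list of enteroendocrine markers. Each member was also set against the mean of the other members: in tissue *Muc2* was nearest (0.296) and *Spink4* farthest (0.774), and in organoids *Agr2* was nearest (0.176) and *Clca1* farthest (0.831). The libraries share their genotype and gate structure, so the likeness is not evidence of shared control.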

How the data were processed

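RNA-seq of 12 tissue and 8 organoid libraries was used. The deposited tissue values are FPKM per gene, per the file headers, and the organoid table, whose header names no unit, was taken as FPKM because its rows and range match. HISAT2 2.1.0, StringTie 1.3.3b and mm10 are named in the submitters' processing notes, with no step given. Strand is not stated. Symbols came from GENCODE M21 (54723 of 54838 rows; 115 had none and 101 symbols were shared). Depth was roughly estimated from how finely the values of 21486 single-exon genes are spaced.

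Values were analysed as log2(FPKM + 1), where changes of low genes are understated. Genes reaching 1 FPKM in at least 2 libraries of a fit were tested (12899 in tissue, 12657 in organoids). Each group had its own mean in limma 3.58.1 (R 4.3.3; lmFit, eBayes with a trend), in tissue without the day 3 libraries. The 15 comparisons are two-sided, with Benjamini-Hochberg adjustment over all genes tested and a call at adjusted p under 0.05. The script was tested on simulated data. Members and lists were chosen with earlier results of these data known. All members are named, and of each further list up to the 3 genes of smallest p per comparison. Alternatives were another pseudocount (0.1), no filter, other scalings, a replicate block, only the compared groups, and leaving out each library.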

Additional observations from a re-analysis of the deposited data

How the results depend on the processing

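Of 637 values of single genes under settings other than leaving out a library, 633 kept their direction and 4 turned: *Tff3* and *Zg16* at KO day 6 against WT Lgr5-low to -0.0703 and -0.0718 with equal FPKM sums, and *Spink4* with AKFP against KO organoids to 0.0467 with equal sums and to 0.0835 with equal sums that leave out defensins and lysozymes, an alternative chosen after seeing the data. Leaving out a library turned 7 more. *Fcgbp* at KO day 4 against WT Lgr5-high ranged from -0.0539, without the second KO library, to 1.73. At KO day 6 against WT Lgr5-low, *Fcgbp* ranged from -1.78 to 0.12, without the first day 6 library, and *Zg16* from -0.201, without the second, to 0.643. With AKFP against KO organoids, *Spink4* ranged from -0.197 to 0.033 and *Spdef* from -0.0468 to 0.206, turning without the first KO library (0.033 and -0.0468) and without the second AKFP library (0.0141 and -0.0174). The cause was not tested, and none of these values was called.

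Counts of members called moved, among others, as follows, with the share of all genes called in brackets. No filter gave 6 in place of 7 at KO day 6 against WT Lgr5-high (7.31%) and with AKF against WT organoids (11.6%). Median-of-ratios scaling gave 6 in place of 7 at KO day 6 against WT Lgr5-high (23%) and in KO against WT organoids (29.1%). So did a fit of the compared groups alone (23.9% and 27.5%). Equal FPKM sums gave 6 in place of 7 in KO against WT organoids (21.9%). They gave 7 in place of 6 with AKFP against WT organoids (35.2%). With no filter, which adds genes to the adjustment, 0 in place of 1 were called between the WT gates (0.108%), at KO day 4 against WT Lgr5-high (0.0979%) and at KO day 6 against WT Lgr5-low (3.55%), 4 in place of 7 in KO against WT organoids (9.87%), and 1 in place of 2 with AKFP against KO organoids (8%). With equal FPKM sums, with or without defensins and lysozymes, 0 in place of 1 were called at KO day 4 against WT Lgr5-high (0.185% with equal sums) and at KO day 6 against WT Lgr5-low (4.4% with equal sums), and the pseudocount of 0.1 also gave 0 at KO day 6 against WT Lgr5-low (10.9%). A fit of the compared groups alone called 6 between the WT gates (12%), 0 at KO day 4 against WT Lgr5-high (0%), 2 at KO day 6 against WT Lgr5-low (10.5%) and 1 with AKFP against KO organoids (27.2%). Leaving out each library gave 0 to 0 between the WT gates (0% to 0.0545%), 0 to 1 at KO day 4 against WT Lgr5-high (0.00779% to 5.47%), 0 to 4 between the gates at KO day 4 (0% to 13.6%), 3 to 7 at KO day 6 against WT Lgr5-high (4.6% to 18.2%), 0 to 1 against WT Lgr5-low (1.98% to 8.84%), 0 to 2 against KO day 4 Lgr5-high (0.0858% to 14.4%), 5 to 6 in place of 7 in KO against WT organoids (13.7% to 15.4%), 5 to 7 with AKF (17.1% to 23.3%) and 6 to 8 with AKFP (27.1% to 32.8%) against WT organoids, 1 to 2 with AKFP against KO organoids (7.32% to 12.7%) and against AKF (7.76% to 22.9%), and 1 to 2 past 2-fold at day 3 in the Lgr5-high gate. A group left with 1 library is assumed to vary like the others.

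The labels do not say that replicate numbers mark shared animals or days, and the block is given only here. Deviations of same-numbered libraries correlated by 0.02 to 0.52 in tissue and by -0.04 to 0.09 in organoids. Between the Lgr5-high and Lgr5-low gates they correlated by 0.44 in WT and by 0.34 at KO day 4. The main fits treated these libraries as independent. With the replicate block, 3 members were called between the WT gates (3.35%), 4 at KO day 4 against WT Lgr5-high (2.19%), 2 at KO day 6 against WT Lgr5-low (14.8%) and 7 with AKFP against WT organoids (44.6%), and the other counts were as reported. The block added *Tff3* and *Clca1* between the WT gates, and *Zg16*, *Clca1* and *Agr2* at KO day 4 against WT Lgr5-high.

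With 2 libraries per group and no counts in the tables used, precision rests on the spread shared across groups, and depth is only roughly known.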

Other observations

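Of 10 other mucin genes listed, membrane and gel-forming, 4 passed the filter in each source (*Muc3*, *Muc3a*, *Muc4* and *Muc13*). *Muc3*, a membrane mucin, was lower in WT Lgr5-high than in WT Lgr5-low cells by -1.98 ± 0.21 (limma adjusted p = 0.0107), with 25.5 and 18.2 FPKM against 80.9 and 96.1 FPKM, and rose by 0.92 at KO day 6 against WT Lgr5-low (adjusted p = 0.0242), to 170 and 165 FPKM. *Muc4*, another membrane mucin, had 2.94 and 4.61 FPKM in KO day 4 Lgr5-high cells against 10.1 and 11.4 FPKM in WT Lgr5-high cells, a difference of -1.32 that did not pass (limma adjusted p = 0.0876), and rose by 0.68 in KO organoids against WT organoids (adjusted p = 0.0206), with 7.10 and 9.10 against 4.32 and 4.99 FPKM. *Muc13* did not pass in KO day 4 or day 6 cells, or in KO organoids.

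*Spink1*, a protease inhibitor of the same Kazal family as *Spink4*, fell in KO organoids against WT organoids by 2.12 on the log2 scale (limma adjusted p = 0.0058), with 6.59 and 4.45 FPKM against 27.7 and 26.2 FPKM, while *Spink4* rose by 0.57. It was the 1 called of 8 tested relatives of the trefoil, AGR and CLCA families and their kin, where 28.2% of all genes were called in either direction and 11.5% were called lower. Between the WT gates *Spink1* was lower in Lgr5-high cells by -3.004 ± 0.40 (limma adjusted p = 0.0163), with 18.8 and 12.9 FPKM against 103 and 170 FPKM in Lgr5-low cells.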
